A study of Sus scrofa with 12 samples.

Results

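Amino acid transporter genes were examined in the endometrium, the lining of the uterus, of sows fed diets that differed in dietary fiber (DF) and N-carbamylglutamate (NCG). The genes were taken by name, as those whose symbol begins with SLC1A, SLC3A, SLC7A, SLC36A, SLC38A or SLC43A followed by a digit, which gave 40 of the 20674 genes of the table. Of these, 39 are named for a transporter or its heavy chain, and SLC7A6OS carries the name only because it lies opposite SLC7A6. A class of 5 cationic amino acid transporters (SLC7A1, SLC7A2, SLC7A3, SLC7A6 and SLC7A7) was set against the other 35. SLC7A5, the best known large neutral amino acid exchanger, was not analysed here.

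All animals were Landrace × Yorkshire sows in the second or the third parity, fed through a gestation of 114 days. The low-fiber (LF) diet held 3.73% crude fiber, without NCG in L − N and with 0.05% NCG in L + N. The high-fiber (HF) diet held 7.46% crude fiber, reached by putting soybean bran and beet pulp in place of part of the corn, without NCG in H − N and with 0.05% NCG in H + N. By the paper's diet composition, the HF diets also held added soybean oil, methionine and threonine, and slightly less lysine hydrochloride and soybean meal. Digestible lysine, threonine and tryptophan were listed as equal. Zeolite powder took the place of NCG in the diets without it. Fiber and these ingredients cannot be told apart. NCG is an analog of N-acetylglutamate, the activator of the enzyme that starts arginine synthesis, and L − N served as the control. Each group had 3 libraries of poly(A) RNA, 12 in all, and the tissue is a bulk sample, so fewer cells of a type and less RNA per cell cannot be told apart. No label ties a library to a named animal, so a p-value measures the spread between these libraries.

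Amino acid transporters are membrane proteins that move amino acids into and out of cells, and in the uterus they supply both the tissue and the secretions that feed the conceptus. Cationic amino acids, among them arginine and lysine, enter through the carriers SLC7A1, SLC7A2 and SLC7A3. They leave through the exchangers SLC7A6 and SLC7A7, light chains that reach the membrane only when bound to the heavy chain SLC3A2. Most other members carry neutral amino acids. The families are the sodium-coupled SLC38 family, the proton-coupled SLC36 family, the facilitative SLC43 family, and the SLC1 family of glutamate and neutral amino acid carriers.

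The libraries held 14369781 to 19309724 counts, of which 0.108% to 0.159% fell on the members. L − N replicate 1 stood apart from the other L − N libraries, at −22.6 on the first principal component (26.7% of the variance) against −67.2 and −65.5 for replicates 2 and 3. Its 7 smooth muscle markers summed to 5909 CPM (counts scaled to the size of the library), against 1029 to 2308 in the other 11 libraries. H − N replicate 3 also stood apart, at 49.9 on the second component against 23.3 and 3.15 for its group. Its root-mean-square log2 distance to its own group was 0.792, close to the 0.799 of L − N replicate 1, and the other 10 libraries had 0.515 to 0.734. Counts of called members and the values of called members against L − N are therefore given also without L − N replicate 1, which leaves 2 libraries in that group, and the calls in H − N also without H − N replicate 3. Markers of endometrium were present in every library, with 9 epithelial markers summing to 1047 to 2399 CPM and 10 stromal markers to 27190 to 62252 CPM. The 10 trophoblast markers, which would mark placenta, summed to 159 to 183.7 CPM in L − N and 184.6 to 270.4 CPM in the other groups. CYP19A1, on that list, had no count in any library, and whether placenta was in the samples was not tested.

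Of the 40 members, 29 had enough counts for a test, among them 4 of the 5 cationic members. The other 11 reached at most 19 counts in any library, and SLC7A13 and SLC36A3 had no library above 3 counts. All 40 had the same start and end in the RefSeq annotation of the pig assembly Sscrofa11.1. In that annotation 12 members overlap another gene, and whether the counting used the strand is not given in the sources used here, so the counts of overlapping genes may be shared. SLC7A7 (chromosome 7, 76195774 to 76235406) overlaps OXA1L on the opposite strand by 697 bases. SLC7A6 (chromosome 6, 28834797 to 28876154) overlaps SLC7A6OS by 1935 bases, and SLC38A9 (chromosome 16, 34639575 to 34858827) shares 101950 bases with PLPP1 on its own strand. SLC36A1 (chromosome 16, 71540646 to 71589532), SLC38A6 (chromosome 1, 189923385 to 189988562), SLC43A2 (chromosome 12, 47791911 to 47839127), SLC43A3 (chromosome 2, 13490913 to 13514518), SLC1A1 (chromosome 1, 217366493 to 217441643) and SLC7A1 (chromosome 11, 6538053 to 6604654) overlap no annotated gene.

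The levels of the members were compared as FPKM (fragments scaled to gene length and to the library total), as the authors deposited it. SLC38A2, a sodium-coupled carrier of small neutral amino acids, had the highest level, with 72.3 FPKM (range 57.2 to 106.7 over 12 libraries). SLC1A5, an exchanger of glutamine and other neutral amino acids, followed with 27.9 FPKM, and the heavy chain SLC3A2 with 23.1 FPKM. SLC38A2 was above SLC1A5 in 12 of 12 libraries and SLC1A5 above SLC3A2 in 10 of 12, whereas SLC7A8 (19.8 FPKM), a neutral amino acid exchanger, was above SLC38A10 (19.7 FPKM) in only 7 of 12. SLC38A4, a neutral amino acid carrier, had 15.7 FPKM, SLC38A6 13.1, SLC38A1 11.7, SLC43A2 9.96 and SLC43A3 7.53. The 3 highest members held 43.6% of the summed FPKM of the members and the 10 highest 78.0%. Among the members, 24 had a mean above 1 FPKM and 14 a mean under 0.5 FPKM.

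**Figure D1:**
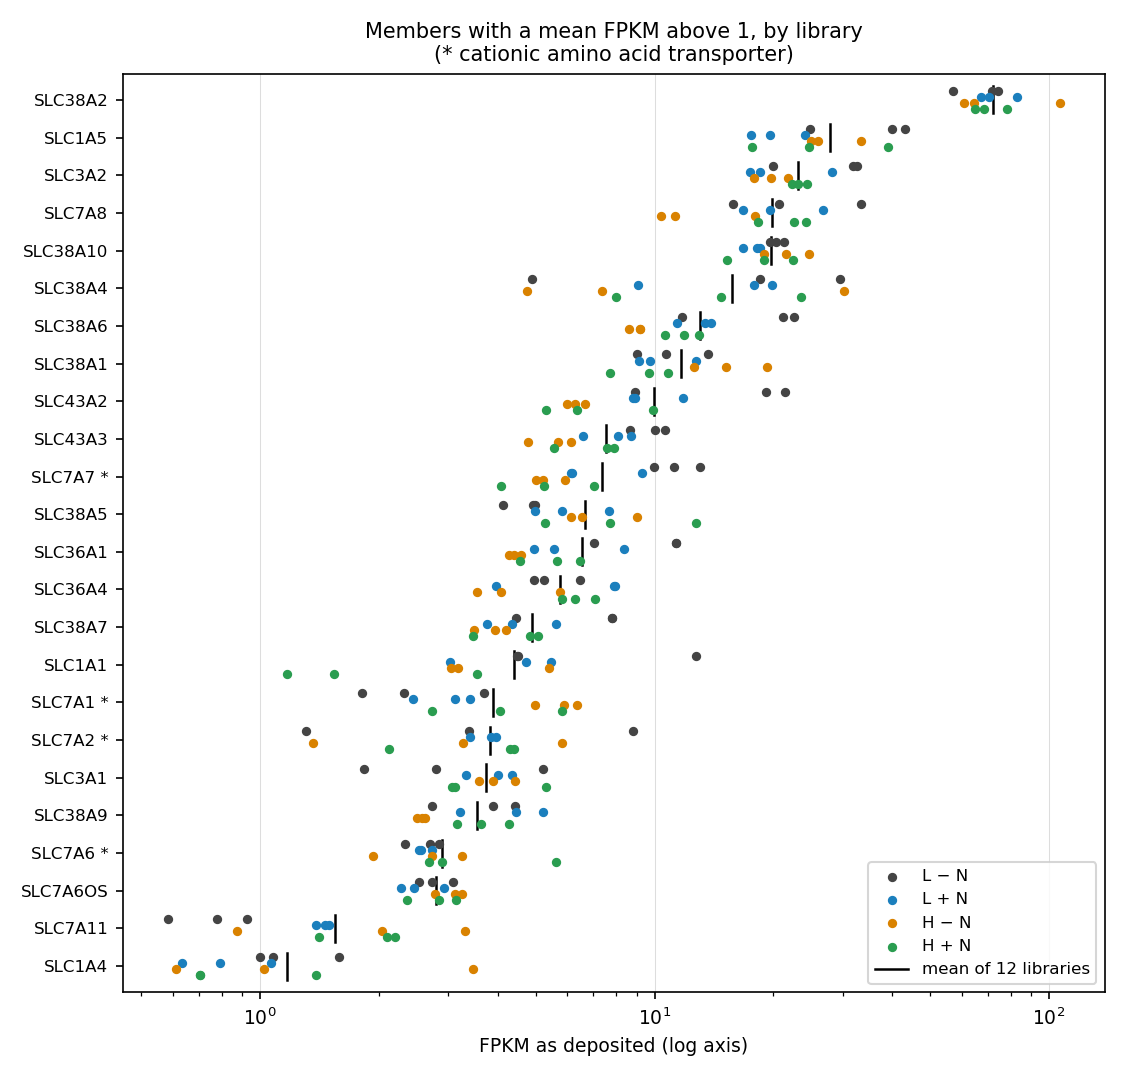
FPKM of the 24 members with a mean above 1 FPKM, on a log axis, with 1 point per library coloured by dietary group and a black line at the mean of the 12 libraries. SLC38A2 (72.3 FPKM) lies above all other members, and the 4 cationic members shown, marked with a star, have means of 2.90 to 7.36 FPKM.

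The 5 cationic members were at low to middling levels. SLC7A7 had a mean of 7.36 FPKM, SLC7A1 3.89, SLC7A2 3.83 and SLC7A6 2.90 FPKM, while SLC7A3 was at 0.0898 FPKM. Together they held 4.60% to 9.45% of the summed FPKM of all 40 members. The share was 9.45%, 4.95% and 6.24% in L − N and 6.90%, 5.64% and 5.84% with NCG added (L + N), against 7.75%, 7.66% and 4.60% in H − N and 6.16%, 6.87% and 5.85% with NCG added (H + N). The ranges of the 4 groups overlapped, and the highest share was that of L − N replicate 1. The pieces of the share are given as a description, with no test. SLC7A7 made up 40.2%, 63.7% and 61.9% of the cationic FPKM in L − N and 26.7% to 35.2% in H − N, without overlap, while L + N (37.9% to 50.5%) overlapped L − N and H + N (23.0% to 38.7%) overlapped H − N. SLC7A1 made up 14.9%, 13.2% and 8.61% in L − N and 31.4% to 34.2% in H − N, also without overlap, while L + N (13.3% to 21.1%) again overlapped L − N and H + N (17.7% to 32.9%) overlapped H − N. For SLC7A7 and for SLC7A1, L + N and H + N also overlapped each other.

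**Figure D2:**
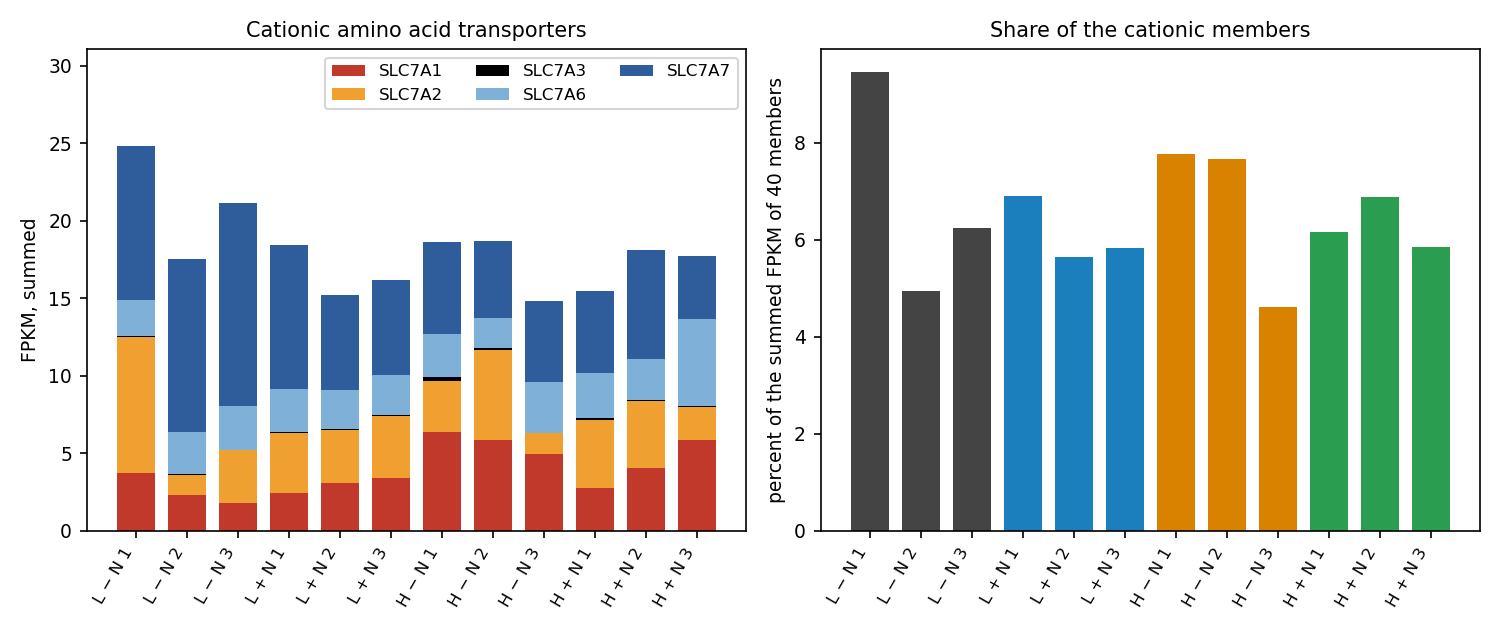
Left, FPKM of the 5 cationic members stacked for each of the 12 libraries, and right, their percentage of the summed FPKM of all 40 members. The total share runs from 4.60% to 9.45% with overlapping groups. SLC7A7 is the largest piece in every L − N and every L + N library. It is also the largest in H + N replicates 1 and 2, and in H − N replicate 3 (35.2%, with SLC7A1 at 33.6%). SLC7A1 makes up 31.4% to 34.2% of the cationic FPKM in the H − N libraries.

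To ask which members differed with fiber and NCG, counts were fitted with edgeR's quasi-likelihood test over all 15351 genes with enough counts. A gene was called at a Benjamini-Hochberg adjusted p under 0.05 with an absolute log2 fold change above 1, the thresholds of the study. Below, edgeR adjusted p is that value, CPM uses library sizes scaled by TMM, the trimmed mean of M-values, and a log2 fold change is the fitted difference between group means. The comparisons with L − N share its 3 libraries, so they are not independent of each other.

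In H − N against L − N, 4 of the 29 tested members were called, all lower in H − N: SLC7A7, SLC36A1, SLC38A6 and SLC43A2. Over all genes tested, 2.91% were called and 2.01% were called lower. SLC43A3 was also lower at an edgeR adjusted p under 0.05 but by less than 1 on the log2 scale, so 5 members passed on p alone, all lower (5.27% of all genes, 3.71% lower). DESeq2 called 6 members, adding SLC7A1 and SLC7A11, both higher, and 5.95% of all genes. A fit with only the 6 libraries of both groups called 0 members and 0.0203% of all genes. Without L − N replicate 1, 7 were called (7.19% of all genes): the same 4 with SLC38A7 and SLC7A8, both lower, and SLC7A1, higher. The count was 0 when replicate 2 or 3 of L − N (0.787% and 0.0385% of all genes), or replicate 1 or 2 of H − N (0% and 1.06%), was left out. Only SLC7A7 was called without H − N replicate 3 (1.02% of all genes), where SLC7A7 was at −1.16 (edgeR adjusted p = 0.0480), SLC36A1 at −1.26 (0.0528), SLC38A6 at −1.15 (0.0612) and SLC43A2 at −1.48 (0.0731). With H + N replicate 3 left out 5 were called, with SLC7A1 added (2.92% of all genes).

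In H + N against L − N, 3 members were called, all lower in H + N: SLC7A7, SLC43A2 and SLC1A1, where 3.58% of all genes were called and 1.28% called lower. SLC36A1 was lower at an edgeR adjusted p under 0.05 alone, which made 4 members (7.97% of all genes, 3.66% lower). DESeq2 called 4 members, adding SLC7A11, higher, and 6.44% of all genes. With only the 6 libraries of both groups, 0 members and 0.585% of all genes were called. Without L − N replicate 1, 4 members were called, with SLC36A1 added (6.09% of all genes). Only SLC7A7 was called without L − N replicate 2 (2.21%). The count was 0 when L − N replicate 3 (0.0257%), or replicate 1 or 3 of H + N (0.00642% and 1.2%), was left out, and 5 without H + N replicate 2 (SLC36A1 and SLC38A5 added, 3.67% of all genes). With any 1 of the L + N libraries (2.77% to 2.8%) or H − N replicate 2 (2.85%) left out, 2 were called, without SLC1A1. Without H − N replicate 1 SLC1A1 was also lost, and SLC7A11 was called in its place (3.33%). SLC7A11 was added to the 3 when H − N replicate 3 was left out (4.05%).

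In L + N against L − N, edgeR called 0 members, where 3.99% of all genes were called and 0.671% called lower. DESeq2 also called 0 members, and 5.75% of all genes. SLC7A7 was lower in L + N at an edgeR adjusted p under 0.05 alone (9.6% of all genes, 3.63% lower), and 8 of 29 members had an unadjusted p under 0.05 (27.8% of all genes). When L − N replicate 1 was left out 3 members were called lower (SLC1A5, SLC36A1 and SLC43A2, with 5.85% of all genes), and without L + N replicate 1, only SLC36A1 (2.68%).

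**Figure D3:**
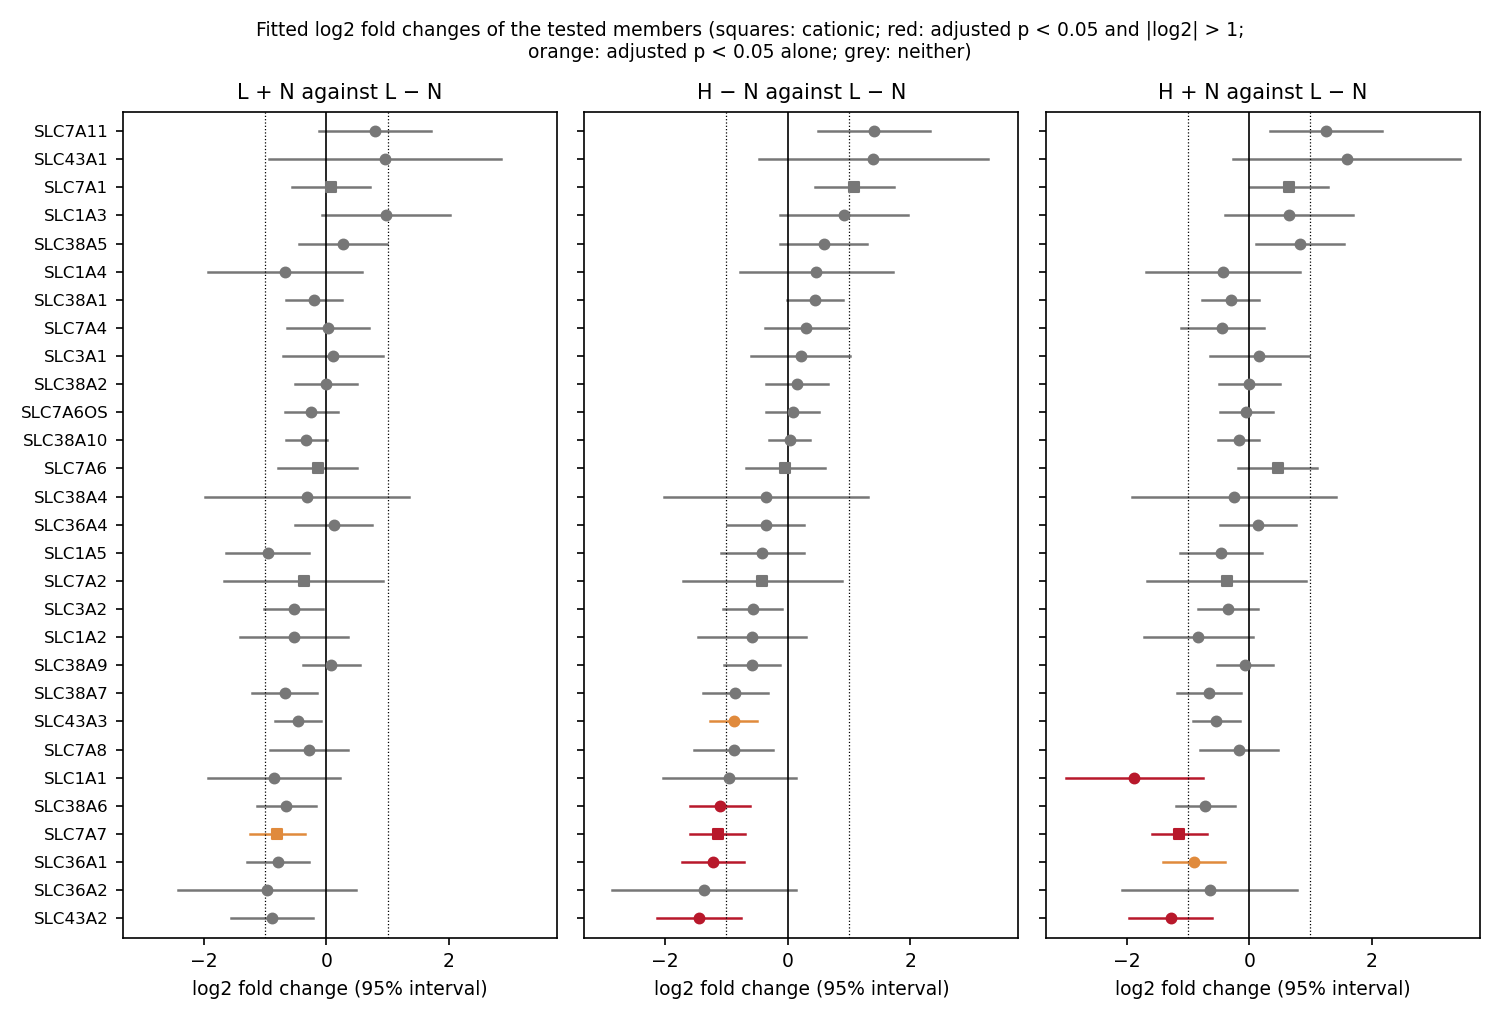
Fitted log2 fold changes with 95% intervals of the 29 tested members for the 3 groups against L − N, with squares for cationic members. Red marks the 4 members called in H − N and the 3 in H + N, all below 0, orange marks those past the adjusted p alone, and dotted lines stand at a log2 fold change of −1 and 1.

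SLC7A7, the light chain of system y+L that exports cationic amino acids in exchange for neutral ones and sodium, was called in both HF groups, as was SLC43A2. It had 49.5, 58.5 and 68.5 CPM in L − N and 42.9, 29.5 and 29.1 with NCG added (L + N), against 28.1, 24.5 and 27.2 in H − N and 25.8, 33.2 and 21.0 with NCG added (H + N). All 3 L − N libraries were above all 9 others. The log2 fold change was −1.15 ± 0.20 (SE) in H − N (edgeR adjusted p = 0.0194), −1.14 ± 0.20 in H + N (edgeR adjusted p = 0.0168) and −0.80 ± 0.20 in L + N (edgeR adjusted p = 0.0330). With L − N replicate 1 left out it was −1.25 in both HF groups and −0.91 in L + N. In L + N it passed the adjusted p in 11 of 17 alternatives, with −0.99 to −0.67 and adjusted p of 0.00341 to 0.132. Over 17 alternatives the value in H − N stayed between −1.25 and −1.02 with edgeR or DESeq2 adjusted p of 1.79e-05 to 0.0949, and that in H + N between −1.34 and −0.99 with adjusted p of 1.90e-05 to 0.0802.

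SLC7A1, the main carrier for arginine and lysine uptake in most cells, had its highest values in H − N. It had 48.1, 31.7 and 25.0 CPM in L − N and 29.6, 39.0 and 42.4 with NCG added (L + N), against 79.0, 75.7 and 68.0 in H − N and 35.3, 50.6 and 78.7 with NCG added (H + N). All H − N libraries were above all 6 LF libraries. Of the H + N libraries, 1 lay in the range of the LF libraries, 1 in that of H − N and 1 between them. The log2 fold change of 1.09 ± 0.29 in H − N did not pass (edgeR adjusted p = 0.0546), nor did 0.83 ± 0.21 for HF against LF (edgeR adjusted p = 0.0916). It was past both thresholds with DESeq2 (1.07) and with either L − N replicate 1 (1.39) or H + N replicate 3 (1.09) left out, 3 of 17 alternatives, whose adjusted p ran from 0.00814 to 0.199.

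The other 3 cationic members did not pass in any comparison. SLC7A2, an inducible carrier for arginine, had 72.0, 11.3 and 29.3 CPM in L − N and 11.7 to 47.1 CPM in the other 9 libraries. Its highest value was that of L − N replicate 1 and its lowest that of L − N replicate 2, so the control group spanned every other group. Its log2 fold changes in L + N, H − N and H + N were −0.37, −0.42 and −0.37, and without L − N replicate 1 they turned to 0.52, 0.47 and 0.52. SLC7A6, the other y+L light chain, had 16.2 to 28.8 CPM in 11 libraries and 49.1 CPM in H + N replicate 3. Between H + N and L + N its log2 fold change was 0.60 ± 0.29 (edgeR adjusted p = 0.910). SLC7A3, a carrier best known from brain, had 0 to 13 counts per library and was not tested in the main fit.

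**Figure D4:**
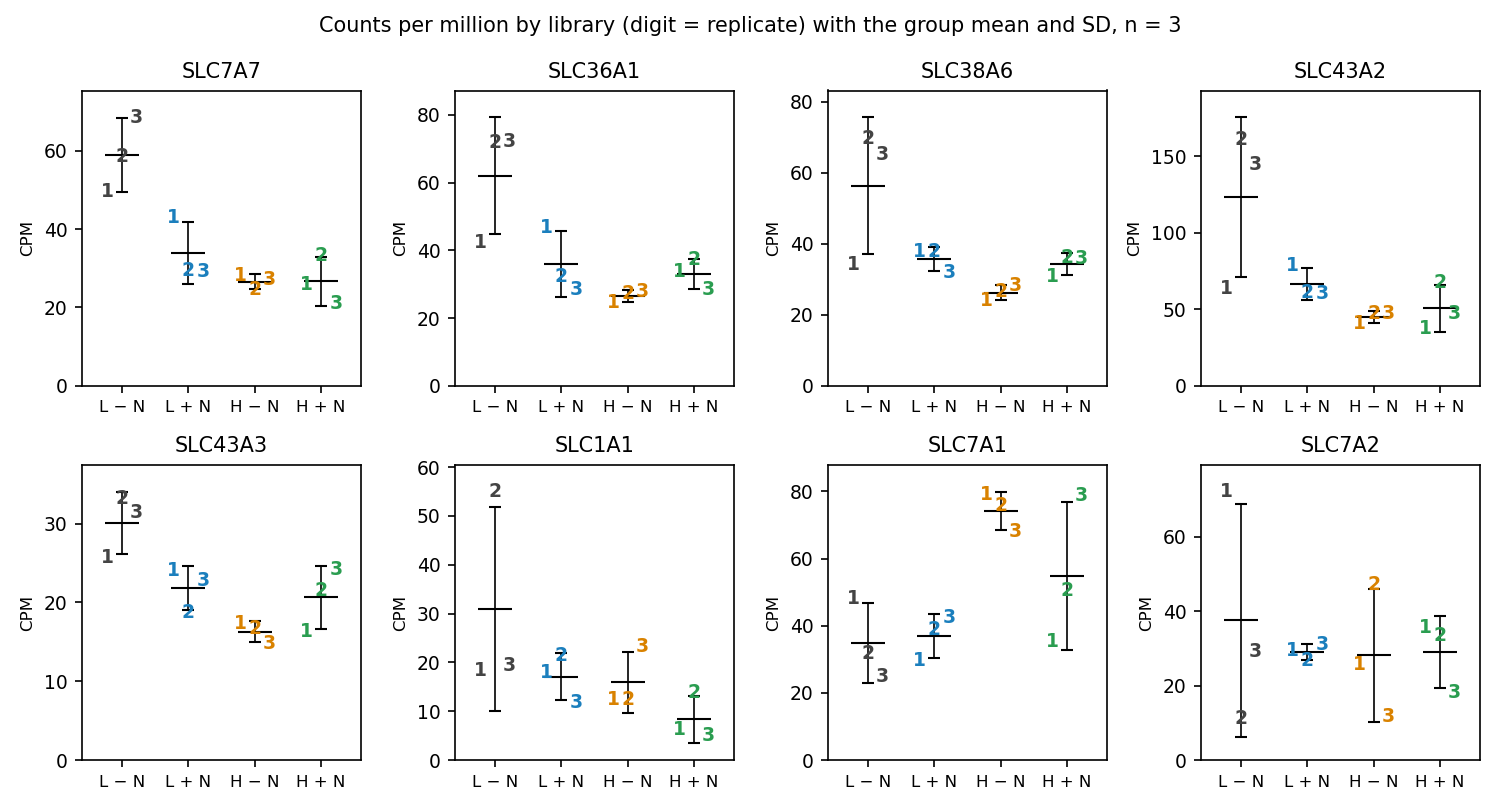
CPM of 8 members by dietary group, with each library drawn as its replicate digit, a bar at the group mean and whiskers of 1 SD (n = 3). In SLC7A7 and SLC43A3 every L − N library lies above the others, in SLC36A1, SLC38A6 and SLC43A2 L − N replicate 1 lies near the other groups, and SLC7A1 is highest in H − N.

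SLC3A2, the heavy chain that carries the y+L and large neutral light chains to the membrane, had 40.9, 70.5 and 69.0 CPM in L − N and 35.2, 34.5 and 55.1 with NCG added (L + N), against 38.5, 44.1 and 38.5 in H − N and 45.5, 47.6 and 49.0 with NCG added (H + N). L − N replicates 2 and 3 were above all other libraries and replicate 1 was among them. Its log2 fold change was −0.57 ± 0.22 in H − N (edgeR adjusted p = 0.141) and −0.34 ± 0.22 in H + N (edgeR adjusted p = 0.336). With L − N replicate 1 omitted these were −0.79 (edgeR adjusted p = 0.0201) and −0.56 (edgeR adjusted p = 0.0749), and in L + N −0.75 (edgeR adjusted p = 0.0278). SLC3A1, the heavy chain of the kidney and gut cystine carrier, had 4.58 to 13.8 CPM with overlapping groups, and its counts may include those of PREPL on the opposite strand.

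Among the other light chains, SLC7A8, an exchanger of neutral amino acids that binds SLC3A2, had 85.9, 192 and 119 CPM in L − N and 58.6, 96.8 and 59.3 in H − N, with replicate 2 of H − N above replicate 1 of L − N. It was called lower in H − N when L − N replicate 1 was left out (−1.12, edgeR adjusted p = 0.0237). It had 122, 126 and 104 CPM in H + N, all above H − N. Between H + N and H − N its log2 fold change was 0.71 ± 0.29 (edgeR adjusted p = 0.548). SLC7A11, the cystine and glutamate exchanger that supplies cysteine for glutathione, was named after its values were seen. It had 5.47, 7.71 and 9.20 CPM in L − N and 12.8, 13.5 and 12.4 with NCG added (L + N), against 7.82, 18.9 and 32.6 in H − N. With both HF and NCG (H + N) it had 20.5, 12.7 and 20.4 CPM. Only H − N replicate 1 lay within the range of L − N. The log2 fold change was 1.40 ± 0.42 in H − N (edgeR adjusted p = 0.0742) and 1.26 ± 0.42 in H + N (edgeR adjusted p = 0.0799). Leaving out L − N replicate 1 gave 1.22 and 1.08, and leaving out H − N replicate 3, its highest library, gave 0.84 in H − N (edgeR adjusted p = 0.212). In L + N the values over 17 alternatives were 0.61 to 0.97, with edgeR or DESeq2 adjusted p of 0.0687 to 0.403.

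SLC36A1, a proton-coupled carrier of small amino acids found on lysosomes and at the cell surface, was called lower in H − N. It had 42.3, 71.9 and 72.2 CPM in L − N and 46.9, 32.2 and 28.4 with NCG added (L + N), against 24.6, 27.3 and 27.9 in H − N and 33.9, 37.2 and 28.4 with NCG added (H + N). All HF libraries were below all L − N libraries, while L + N replicate 1 was above L − N replicate 1. The log2 fold change was −1.23 ± 0.23 in H − N (edgeR adjusted p = 0.0232) and −0.90 ± 0.23 in H + N (edgeR adjusted p = 0.0388). With L − N replicate 1 left out these were −1.44 and −1.12, and over 17 alternatives the value in H − N ran from −1.44 to −1.10 with adjusted p of 4.93e-05 to 0.0975. In H + N the alternatives ran from −1.12 to −0.78 with adjusted p of 0.00358 to 0.137. In L + N it was −0.79 ± 0.23 (edgeR adjusted p = 0.0520).

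In the SLC38 family 1 of 8 tested members was called, lower in H − N against L − N (2.91% of all genes called, 2.01% lower), and none in the other comparisons. SLC38A6, a less studied member of the family, had 34.2, 69.5 and 65.2 CPM in L − N and 37.8, 37.7 and 31.8 with NCG added (L + N), against 24.0, 26.6 and 28.2 in H − N and 30.8, 36.1 and 35.98 with NCG added (H + N). H − N was below all 9 other libraries, and L − N replicate 1 fell among the groups with NCG. Against L − N, its log2 fold change in H − N was −1.10 ± 0.22 (edgeR adjusted p = 0.0268), −1.36 without L − N replicate 1, and −1.36 to −0.92 over 17 alternatives with adjusted p of 0.000195 to 0.114. In H + N it was −0.72 ± 0.22 (edgeR adjusted p = 0.0660), and −0.97 without L − N replicate 1 (edgeR adjusted p = 0.00262).

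SLC38A2, the member with the highest level, had 284 to 549 CPM, and its log2 fold changes in L + N, H − N and H + N against L − N were −0.01, 0.15 and 0.00 (95% intervals −0.51 to 0.50, −0.35 to 0.66 and −0.50 to 0.51). The same values without L − N replicate 1 were 0.0099, 0.17 and 0.021. Its highest library was H − N replicate 3. SLC38A1, a glutamine carrier whose gene lies 36.8 kb from SLC38A2, had 58.1, 49.98 and 81.1 CPM in H − N and 38.6, 41.4 and 32.0 in H + N, without overlap. It had the smallest p of all members for H + N against H − N, with a log2 fold change of −0.75 ± 0.21 (edgeR adjusted p = 0.451), and for NCG, with −0.48 ± 0.15 (edgeR adjusted p = 0.0759). SLC38A9, a lysosomal arginine sensor, had 30.5 to 34.5 CPM in H − N and 41.7 to 54.1 in H + N (edgeR adjusted p = 0.548). SLC38A4 ranged from 28.7 to 194 CPM within H − N alone, and SLC38A10, which had 57.7 to 89.3 CPM, passed in no comparison.

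In the SLC43 family, facilitative carriers of large neutral amino acids, SLC43A2 was called in both HF groups. It had 63.6, 161 and 145 CPM in L − N and 78.7, 61.2 and 60.1 with NCG added (L + N), against 40.9, 47.2 and 47.3 in H − N and 37.6, 67.6 and 47.1 with NCG added (H + N). H − N was below every L − N library, whereas H + N replicate 2 was above L − N replicate 1. The log2 fold change was −1.45 ± 0.31 in H − N (edgeR adjusted p = 0.0298) and −1.28 ± 0.31 in H + N (edgeR adjusted p = 0.0332). When L − N replicate 1 was left out it was −1.76 and −1.59, and over 17 alternatives the ranges were −1.76 to −1.21 (adjusted p 0.000215 to 0.116) and −1.59 to −1.04 (adjusted p 0.00121 to 0.120).

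SLC43A3, which has since been linked to purine base transport, had 25.6, 33.2 and 31.4 CPM in L − N and 24.0, 18.7 and 22.8 with NCG added (L + N), against 17.4, 16.7 and 14.8 in H − N and 16.3, 21.5 and 24.2 with NCG added (H + N). Every L − N library was above all 9 others, and H − N was below all but H + N replicate 1. Against L − N, its log2 fold change in H − N was −0.88 ± 0.18 (edgeR adjusted p = 0.0262), and −0.99 without L − N replicate 1. It passed the adjusted p in 11 of 17 alternatives, with −0.99 to −0.81 and adjusted p of 8.88e-05 to 0.105.

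SLC1A1, a high-affinity glutamate and aspartate carrier, was called in H + N. It had 18.4, 55.0 and 19.3 CPM in L − N and 17.9, 21.4 and 11.8 with NCG added (L + N), against 12.4, 12.3 and 23.2 in H − N and 6.26, 13.9 and 4.96 with NCG added (H + N). All H + N libraries were below all L − N libraries, but L − N replicate 2 was far above the other 11. The log2 fold change was −1.88 ± 0.51 (edgeR adjusted p = 0.0469), −1.17 with L − N replicate 2 left out and −2.14 with L − N replicate 1 left out, with adjusted p of 0.00258 to 0.151 over 17 alternatives, 7 of which kept the call. SLC1A5 had 71.7, 132 and 122 CPM in L − N and 52.9, 48.9 and 66.5 in L + N. The 2 groups did not overlap, and the log2 fold change was −0.95 ± 0.31 (edgeR adjusted p = 0.0739), or −1.18 without L − N replicate 1 (edgeR adjusted p = 0.0299).

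No member was called in the other 5 comparisons. In H + N against H − N edgeR called 0 members and 0% of all genes, with 4 members at an unadjusted p under 0.05 (8.67% of all genes). In H + N against L + N it called 0 members and 0% of all genes, with 0 members at an unadjusted p under 0.05 (4.68% of all genes). For HF against LF it called 0 members and 0.0261% of all genes, with 11 members at an unadjusted p under 0.05 (19.5%), and for NCG against no NCG 0 members and 1.8% of all genes, with 5 (23.6%). For the interaction of fiber and NCG it called 0 members and 0% of all genes, with 8 (12.8%). DESeq2 also called 0 members in each of the 5.

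For HF against LF the smallest p were those of SLC7A7 (−0.74 ± 0.14), SLC43A2 (−0.92 ± 0.22) and SLC36A1 (−0.67 ± 0.16), with edgeR adjusted p of 0.0647, 0.0816 and 0.0882. SLC43A2 was called without L − N replicate 1 (−1.08), as were 2.13% of all genes. For the interaction they were those of SLC36A1 (1.11 ± 0.32), SLC38A6 (1.04 ± 0.31) and SLC43A3 (0.81 ± 0.25), with edgeR adjusted p of 0.263 to 0.275. A positive value here means that the group difference with NCG was higher on the HF than on the LF diet. SLC36A1 (1.32), SLC38A6 (1.30) and SLC43A2 (1.37) were called without L − N replicate 1, as were 2.22% of all genes. For NCG, SLC7A7 had −0.40 ± 0.14 and SLC1A1 −0.89 ± 0.35 (edgeR adjusted p = 0.121 and 0.153), and for H + N against L + N, SLC1A1 had −1.02 ± 0.50 and SLC7A1 0.57 ± 0.29 (edgeR adjusted p = 0.910 for both).

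Set side by side, the 4 tested cationic members had a median log2 fold change against L − N of −0.26 (L + N), −0.23 (H − N) and 0.05 (H + N). The 25 other tested members had −0.32, −0.36 and −0.30, and all 15351 genes −0.02, 0.03 and 0.02. Without L − N replicate 1 the cationic medians were 0.071, 0.17 and 0.44 and those of the others −0.38, −0.46 and −0.41. A median over 4 genes hides their spread, since in H − N SLC7A7 was at −1.15 and SLC7A1 at 1.09. In the same order of groups, 0, 1 and 1 cationic members were called, all SLC7A7, and 0, 3 and 2 of the others. Over all genes 3.99%, 2.91% and 3.58% were called.

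Markers of other cells moved with some of these members. The 10 markers of macrophages and neutrophils, all tested, summed to 629, 1622 and 1701 CPM in L − N and 438 to 720 with NCG added (L + N), against 401 to 471 in H − N and 433 to 617 with NCG added (H + N). Against L − N, 2 of the 10 were called in L + N (3.99% of all genes). On the HF diet 5 were called in H − N (2.91%) and 3 in H + N (3.58%). All of these were lower. Without L − N replicate 1 the counts were 4, 7 and 6 (5.85%, 7.19% and 6.09% of all genes). When H − N replicate 3 was left out 1 was called in H − N (1.02% of all genes). With only the libraries of the 2 groups compared the counts were 1, 0 and 0 (3.58%, 0.0203% and 0.585% of all genes). In L + N and in H − N 7 of the 10 were lower and 3 higher, while all 10 were lower in H + N. The 3 higher ones were the neutrophil genes S100A8 (1.65 and 2.81 on the log2 scale), S100A9 (1.63 and 3.36) and S100A12 (1.22 and 1.06), none of which passed in edgeR (adjusted p of 0.191 to 0.617). CD163, a scavenger receptor of macrophages, was at −1.57, −2.02 and −1.71 on the log2 scale (edgeR adjusted p = 0.0364, 0.0279 and 0.0332). CSF1R, the receptor for macrophage colony-stimulating factor, was at −1.66 in H − N (edgeR adjusted p = 0.0225), and CD14, a co-receptor for lipopolysaccharide, at −1.56 (edgeR adjusted p = 0.0192). None of the 10 was at 0 in all libraries, and S100A8 was above 3 counts in 8 of 12. SLC43A2, SLC38A6, SLC36A1 and SLC3A2 had their highest values in the same L − N libraries, replicates 2 and 3, and the part of these cells in the results was not tested. SLC7A7 and SLC43A3 were higher in L − N replicate 1 too than in all 9 libraries of the other groups. The smooth muscle markers summed to 1826 to 5909 CPM in L − N and 1029 to 1835 in the other groups, and SLC7A2 and SLC7A1 were higher in L − N replicate 1 than in the other L − N libraries. Of the 7 smooth muscle markers, 2 were called in L + N, both lower, and 0 in H − N and in H + N. Without L − N replicate 1 the count was 0 in each. The part of smooth muscle was not tested. The epithelial markers summed to 1600.3 to 2399 CPM in H − N, where the mean of SLC7A1 was highest, and to 1047 to 1567 CPM in the other 9 libraries. SLC7A1 had 79.0, 75.7 and 68.0 CPM in H − N, with epithelial sums of 1931, 1600.3 and 2399 CPM. In H + N it had 35.3, 50.6 and 78.7 CPM, with sums of 1262, 1409 and 1296 CPM. The part of epithelium in these values was not tested. CDH1, the adhesion protein of epithelia, was at 0.83 in H − N (edgeR adjusted p = 0.0279). Among the stromal markers VIM, an intermediate filament, was lower in H − N (−1.61) and H + N (−1.23), and HOXA10, a patterning factor of the uterus, was higher in L + N (1.60) and H + N (1.52), with edgeR adjusted p of 0.00825 to 0.0158. In all, 1, 2 and 2 of the 10 stromal markers were called in L + N, H − N and H + N (3.99%, 2.91% and 3.58% of all genes). Without L − N replicate 1 the stromal markers called higher were 1, 0 and 1, and those called lower 1, 2 and 2. Of 7 tested trophoblast markers 0, 0 and 1 were called, the 1 being higher, and 0, 1 and 1 without L − N replicate 1, all higher. PECAM1, an endothelial adhesion protein, was lower in L + N (−1.09, edgeR adjusted p = 0.0110). It was the 1 called of 8 endothelial markers in L + N, and 0 were called without L − N replicate 1. HBB, the beta chain of hemoglobin, had means of 431 CPM in L − N, 52.4 with NCG added, 38.5 in H − N and 172 with NCG added, and passed in none (edgeR adjusted p of 0.0525 to 0.339). The part of these cells in the members' values was not tested.

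**Figure D5:**
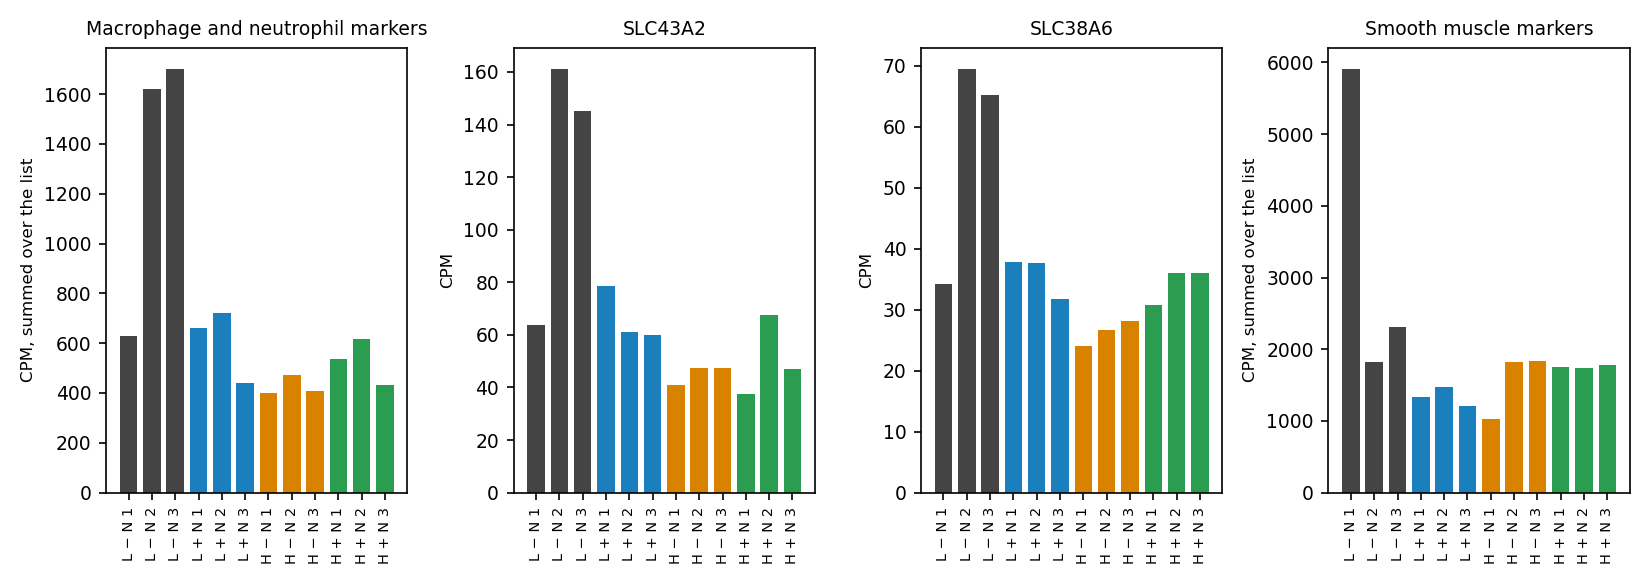
CPM by library for the summed macrophage and neutrophil markers, SLC43A2, SLC38A6 and the summed smooth muscle markers, coloured by dietary group. In the first 3 panels L − N replicates 2 and 3 are the highest, and in the last panel L − N replicate 1 stands alone at 5909 CPM.

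Amino acid transporters of other families were read from a list of 24 genes in the table. Of 17 tested, 2, 3 and 2 were called in the 3 groups against L − N, all lower (3.99%, 2.91% and 3.58% of all genes were called, 0.671%, 2.01% and 1.28% lower, which are the shares for the lists that follow too). With L − N replicate 1 left out the counts were 3, 4 and 2, of which 1, 1 and 0 were higher. With H − N replicate 3 left out 3 were called in H − N, all lower (1.02% of all genes). CTNS, the lysosomal cystine exporter, was at −1.33, −1.46 and −1.42 on the log2 scale (edgeR adjusted p = 0.00819, 0.0141 and 0.0136). SLC6A6, the taurine transporter, was at −1.004 in H − N and −0.997 in H + N (edgeR adjusted p = 0.0162 and 0.0136), just past the fold threshold in H − N and just short of it in H + N. SLC6A17, a vesicular neutral amino acid transporter, was at −1.32 in H − N (edgeR adjusted p = 0.0233). MFSD12, a lysosomal cysteine importer named after its values were seen, was the other gene called in L + N (−1.07) and H + N (−1.19).

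Genes that sense or use amino acids were read in the same way. Of 20 genes of the amino acid response through the kinase GCN2 and the factor ATF4, edgeR called 0 in each of the 3 groups, with 7, 7 and 5 at an unadjusted p under 0.05 (27.8%, 24.4% and 27.5% of all genes). DESeq2 called 0, 4 and 2 of them, and edgeR without L − N replicate 1 called 1, 2 and 1. Without H − N replicate 3, edgeR called 3 higher and 1 lower in H − N (1.02% of all genes). CTH, which makes cysteine, was at −0.98 in H + N (edgeR adjusted p = 0.0317), GPT2, a mitochondrial alanine aminotransferase, at 1.16 in H − N (edgeR adjusted p = 0.0550), and PHGDH, the first enzyme of serine synthesis, at 1.52 (edgeR adjusted p = 0.0728). Of 29 genes that signal amino acids to mTORC1, 0, 1 and 1 were called in L + N, H − N and H + N, all lower. They were SESN1, of the leucine sensor family, at −1.01 in H − N (edgeR adjusted p = 0.0279), and CASTOR2, a relative of the arginine sensor CASTOR1, at −1.35 in H + N (edgeR adjusted p = 0.0142). RRAGC, a Rag GTPase, was at −0.63 in H − N (edgeR adjusted p = 0.0406). Leaving out L − N replicate 1 gave 0, 3 and 2 called, all lower. Leaving out H − N replicate 3 gave 0 called in H − N.

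Of 13 tested genes that make or use cationic amino acids, 0, 2 and 1 were called in L + N, H − N and H + N, all lower. ASL, which releases arginine from argininosuccinate, had group means of 18.5 CPM in L − N and 12.1 with NCG added, against 8.997 in H − N and 9.22 with NCG added, with log2 fold changes of −1.04 in H − N (edgeR adjusted p = 0.0192) and −1.01 in H + N (edgeR adjusted p = 0.0158). GATM, which starts creatine synthesis from arginine, was at −1.11 in H − N (edgeR adjusted p = 0.0495), and OAT, which links ornithine to glutamate, at −0.59 in L + N (edgeR adjusted p = 0.0576). The counts stayed at 0, 2 and 1 when L − N replicate 1 was left out. Without H − N replicate 3, 1 was called in H − N (1.02% of all genes). With only the libraries of the 2 groups compared, the counts were 0, 0 and 0.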

How the data were processed

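RNA of the endometrium was measured in 12 libraries, 3 for each of the 4 diets, assigned to groups by the letters of their titles. The authors deposited 1 table with the read count of each gene, not normalized, and the FPKM that they made from count, gene length and library total, which a recalculation matched within 1.91e-05 percent. The submitters' processing notes name fastp 0.22.0, HISAT2 2.1.0, HTSeq 0.9.1 and the assembly Sscrofa11.1, and the counting strand is not given in the sources used here.

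Genes with low counts were removed with filterByExpr, which left 15351. The counts were scaled by TMM and fitted in R 4.3.3 with edgeR 4.0.16 (glmQLFit and glmQLFTest) as 4 group means over 12 libraries, which left 8 residual degrees of freedom. The 8 comparisons were contrasts of these means, adjusted by the Benjamini-Hochberg method over all genes tested. The study used DESeq2, run here as version 1.42.0 for an alternative. Other alternatives were RLE scaling, no filter, the replicate number as a block, only the libraries compared, and leaving out each library in turn. FPKM served for levels and shares, which have no test.

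Total counts were 14369781 to 19309724 per library. The chi-square per gene between replicates was 22.8 to 98.6 and the common biological coefficient of variation 0.269, so the spread between libraries, more than depth, set the precision. No replicates agreed within counting error.

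The members and gene lists were chosen with earlier results of these data known. Named members are the 5 cationic ones, both heavy chains, the 10 with the highest mean FPKM, every member called in any comparison, the 3 with the smallest p in each comparison, and those at the floor of 3 counts. For the macrophage and neutrophil list and the lists without cell markers, the 3 genes with the smallest p against L − N are named. Of the other marker lists fewer genes or none are named. SLC7A11, SLC38A7, SLC7A6OS, SLC7A9, SLC38A11, SLC38A5, MFSD12 and the trophoblast and neutrophil markers were named after their values were seen.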

Additional observations from a re-analysis of the deposited data

How the results depend on the processing

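Counts of called members did not change by over 1.5 times with RLE scaling, without the filter on low counts or with DESeq2, and no called value changed its sign. DESeq2 called 913 genes in H − N (446 with edgeR), 988 in H + N (549), 290 for HF (4) and 184 for the interaction (0). A fit with only the 2 groups compared gave 0 called members in H − N (0.0203% of all genes) and 0 in H + N (0.585%) against L − N. Leaving out 1 library at a time, the count ran from 0 to 3 in L + N, 0 to 7 in H − N and 0 to 5 in H + N against L − N. It ran from 0 to 1 for HF against LF and 0 to 3 for the interaction. In the same order, the share of all genes called ran from 0.918% to 5.85%, 0% to 7.19%, 0.00642% to 6.09%, 0% to 2.13% and 0% to 2.22%. The highest counts in L + N, H − N, HF and the interaction were those without L − N replicate 1. The cause was not tested.
Over the same omissions the median log2 fold change of the cationic members ran from −0.46 to 0.071 in L + N, −0.43 to 0.17 in H − N, −0.15 to 0.44 in H + N and 0.14 to 0.71 for the interaction. That of the others ran from −0.25 to 0.24 for H + N against H − N and 0.12 to 0.66 for the interaction.
With the replicate number as a block (replicate block), 0, 4 and 3 members were called in L + N, H − N and H + N against L − N, while the genes called in H − N went from 446 to 254. Of 18 pairs of same-numbered libraries, 3 had deviations that correlated above 0.1 (−0.32 to 0.28), so the numbers were not taken to pair the animals, and 3 of 12 libraries correlated best with their own number. Of the alternative values of named members, 430 stayed on their side of the threshold, 42 lost it and 12 passed it. Members with few counts were left out of the main fit. Without the filter SLC7A3 was called in no comparison, and at this depth a difference in it may not be detectable.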

Other observations

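A pair of members with too few counts for the main fit are described by their counts, and were named after their values were seen. SLC7A9, a light chain of the cystine and cationic amino acid carrier in kidney and gut, had 4, 2 and 1 counts in L − N, 3, 1 and 2 in L + N, 13, 6 and 9 in H − N, and 8, 0 and 6 in H + N. Its gene overlaps TDRD12 on the opposite strand. SLC38A11, an orphan member of the SLC38 family, had 4, 2 and 2 counts in L − N, 6, 1 and 8 in L + N, 0, 0 and 2 in H − N, and 8, 10 and 19 in H + N. Neither was tested.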
